A study of Mus musculus with 29 samples.

Results

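The comparison described here is that of chromatin accessibility in mouse blue cones against green cones, measured by ATAC-seq, in which a transposase cuts and tags open DNA so that the reads over a region report how open it was. The 4 libraries were chosen by their labels, 2 of sorted blue cone photoreceptors and 2 of single-sorted green cone photoreceptors, out of 12 ATAC-seq libraries with counts and 29 samples in the series. Blue cones carried the genotype Nrl-eGFP;NrlKO, in which the rod factor gene *Nrl* is knocked out, and its photoreceptors develop like blue cones in place of rods, so the cells were a surrogate for blue cones rather than the blue cones of a wild-type eye. Green cones came from Opn1mw-GFP mice, whose reporter is named for the green opsin gene *Opn1mw* and whose label gives no *Nrl* mutation. Both populations were isolated by GFP fluorescence from papain-dissociated retinas of mice at postnatal day 56, in a single round of sorting. Genotype, reporter line and cone population changed together between the groups and cannot be told apart. Rods (Nrl-eGFP, day 56, single sort, 2 libraries) and aggregate bipolar cells (pan-BC, Otx2-GFP+/-; Grm6-YFP+/+, days 44 and 43, single sort, 2 libraries) were used to place the differing regions. Pan-BC thus differ from the cone groups in line and age as well as in cell type. Rods and pan-BC also entered the fit, as did ON and OFF bipolar cells (double transgenic Otx2-GFP and Grm6-YFP mice in the paper, days 42 and 46, 2 libraries each). All 12 libraries set the filter on reads and the spread used for p-values. The 2 libraries of double-sorted green cones (Opn1mw-GFP, day 56) gave peaks alone. The labels do not say whether the libraries of a group came from different mice. The p-values thus measure the spread between libraries of a group, pooled over all 12 libraries, and that spread may be technical.

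Counts were given for 110715 regions of 201 bp on GRCm38, of which 108448 had enough reads to be tested. Blue cones had 4572550 and 8058443 reads in regions and green cones 7574103 and 4176776. Across tested regions the log2 values of the blue libraries had a Pearson correlation of 0.92 and those of the green libraries 0.903, against 0.838 to 0.891 between a blue and a green library. The second green library stood furthest from rods, at 0.774 and 0.777, where the first reached 0.822 and 0.823. RNA of the blue cone line, from separate libraries, matched its label: *Opn1sw* averaged 1220000 ± 101000 normalized counts (SD, n = 3) against 7480 ± 102 in rods (n = 3), and *Nrl* 636 ± 141 against 14200 ± 2570. The green opsin gene *Opn1mw* also had RNA in the blue cone line, at 49900 ± 8570 against 531 ± 40.9 in rods. No RNA of green cones was measured.

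Rods and cones arise from a shared precursor, and NRL, a leucine zipper factor, together with its target NR2E3, an orphan nuclear receptor, turns on rod genes and holds cone genes off. Most mouse cones make both the blue opsin OPN1SW and the green opsin OPN1MW in amounts that follow position in the retina. The thyroid hormone receptor TRβ2, from *Thrb*, with its partner RXRγ, from *Rxrg*, favours green opsin and represses blue opsin, while CRX and OTX2 bind at genes of both rods and cones.

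The regions that carry the differences are given as the reference sequence of the plus strand of GRCm38, 5′ to 3′, with every match to the 12 motifs searched in capitals. The intronic *Nrl* region (chr14:55521174-55521374), the upstream part of the *Gnat1* promoter region (chr9:107679635-107679809, ending before the transcription start site, TSS) and the *Racgap1* intronic region (chr15:99644058-99644258) were open in green cones and rods and nearly closed in blue cones. The *Cttnbp2nl* (chr3:105055043-105055243) and *She* (chr3:89861198-89861398) regions, both intergenic, were open in green cones but in neither rods nor blue cones and hold AP-1 matches among others. The *Opn1sw* region (chr6:29373273-29373473, in an intron of the neighbouring gene *Calu*), the *Dnah5* region (chr15:28575678-28575878, intergenic) and the *Auts2* region (chr5:132591794-132591994, intergenic) had reads in both blue cone libraries and in neither green cone library. The *Dnah5* and *Auts2* regions are named for the nearest gene and lie at 372012 and -48674 bp from its TSS. Matches on either strand count. In *Nrl* the capitals mark TAATCC (the K50 homeodomain motif of CRX and OTX2), TAATTA (the Q50 motif of RAX and similar factors) and CAGATG (an E-box of the NEUROD type). In *Gnat1* they mark TGCTGA (one arm of the NRL and large MAF site), and in *Racgap1* an NRL arm, a K50 motif and a MEF2 motif. The *Cttnbp2nl* region has a pair of matches to TGANTCA (AP-1, the FOS and JUN site), a K50 motif and AGGTCA (a nuclear receptor half-site). The *She* region has an AP-1 motif, an NRL arm, a NEUROD E-box and overlapping matches to AGGNGGC (part of the CTCF site). The *Opn1sw* region has an NRL arm and AGGTGT (a T-box half-site), the *Dnah5* region a K50 motif, ATCAAT (of ONECUT factors) and a Q50 motif inside a MEF2 motif, and the *Auts2* region K50 motifs alone.
Nrl intron: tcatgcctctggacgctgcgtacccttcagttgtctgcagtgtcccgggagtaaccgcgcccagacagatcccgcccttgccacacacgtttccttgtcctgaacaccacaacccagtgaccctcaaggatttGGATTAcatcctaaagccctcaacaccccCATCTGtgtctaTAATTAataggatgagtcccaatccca
Gnat1 promoter: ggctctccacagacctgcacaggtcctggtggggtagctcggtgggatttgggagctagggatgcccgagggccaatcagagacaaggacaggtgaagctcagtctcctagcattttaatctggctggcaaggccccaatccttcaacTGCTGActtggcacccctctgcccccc
Racgap1 intron: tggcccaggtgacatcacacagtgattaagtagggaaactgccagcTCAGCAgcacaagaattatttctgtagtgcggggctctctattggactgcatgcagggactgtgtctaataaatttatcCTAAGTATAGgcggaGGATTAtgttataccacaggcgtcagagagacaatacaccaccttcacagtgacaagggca
Cttnbp2nl intergenic: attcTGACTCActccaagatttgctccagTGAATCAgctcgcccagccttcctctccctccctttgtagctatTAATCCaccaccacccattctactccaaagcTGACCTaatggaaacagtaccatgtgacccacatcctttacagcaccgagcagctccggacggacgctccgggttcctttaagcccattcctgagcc
She intergenic: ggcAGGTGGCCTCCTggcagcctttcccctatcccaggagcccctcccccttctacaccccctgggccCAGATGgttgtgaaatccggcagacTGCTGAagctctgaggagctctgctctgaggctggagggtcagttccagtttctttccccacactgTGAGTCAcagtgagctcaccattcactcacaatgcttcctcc
Opn1sw 7140 bp: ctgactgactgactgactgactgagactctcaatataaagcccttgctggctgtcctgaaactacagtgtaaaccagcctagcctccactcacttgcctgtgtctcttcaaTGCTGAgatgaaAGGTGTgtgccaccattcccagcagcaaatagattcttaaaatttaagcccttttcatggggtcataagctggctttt
Dnah5 intergenic: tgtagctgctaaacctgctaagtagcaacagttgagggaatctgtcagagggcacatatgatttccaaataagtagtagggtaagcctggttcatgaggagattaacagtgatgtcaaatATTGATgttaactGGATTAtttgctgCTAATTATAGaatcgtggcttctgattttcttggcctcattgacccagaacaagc
Auts2 intergenic: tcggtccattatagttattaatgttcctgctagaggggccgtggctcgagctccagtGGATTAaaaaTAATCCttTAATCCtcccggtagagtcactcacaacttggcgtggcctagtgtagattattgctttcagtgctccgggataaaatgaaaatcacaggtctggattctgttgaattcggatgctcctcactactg

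Blue and green cones differed by more than 2-fold at 98 regions, at 0.05 of limma's adjusted p. Of these, 30 were more open in blue cones, which is 0.0277% of the regions tested, and 68 in green cones, which is 0.0627%. Under the wider rule of a fitted change of at least 2-fold and an adjusted p below 0.05 against no change, 1205 regions (1.11%) were higher in blue cones and 3293 (3.04%) in green cones. Blue cones thus held 30.6% of the regions called at more than 2-fold and 26.8% of the wider calls. After quantile normalization of the 4 cone libraries the counts were 35 and 32 for changes over 2-fold and 1472 and 1585 under the wider rule, so that blue cones held 52.2% and 48.2%. Scaling by TMM gave 37 and 66, by the library total 38 and 98, and by size factors from promoters 30 and 92, so these kept more green than blue calls. The median difference over all tested regions was -0.13 on the log2 scale (-0.2 at TSS-distal regions and 0.03 at promoters), and 0.01 after quantile normalization, and each difference reads against that shift.

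Each of the 4 libraries bore on these counts. Without blue cones 1 there were 3 regions higher in blue and 30 in green cones, without blue cones 2 there were 9 and 136, without green cones 1 there were 37 and 16, and without green cones 2 there were 1 and 4. Calls over 2-fold that held with each library left out in turn numbered 1 of 30 in blue and 4 of 68 in green cones. Tested against no change, 28 of the 30 and 57 of the 68 held in all 4 such fits. The calls over 2-fold that held in green cones include regions at *Nrl* and *Gnat1* and one at 26215 bp from the TSS of *Gm6498*. That in blue cones lies 292525 bp from the TSS of *Gm27239*, the nearest gene.

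**Figure D1:**
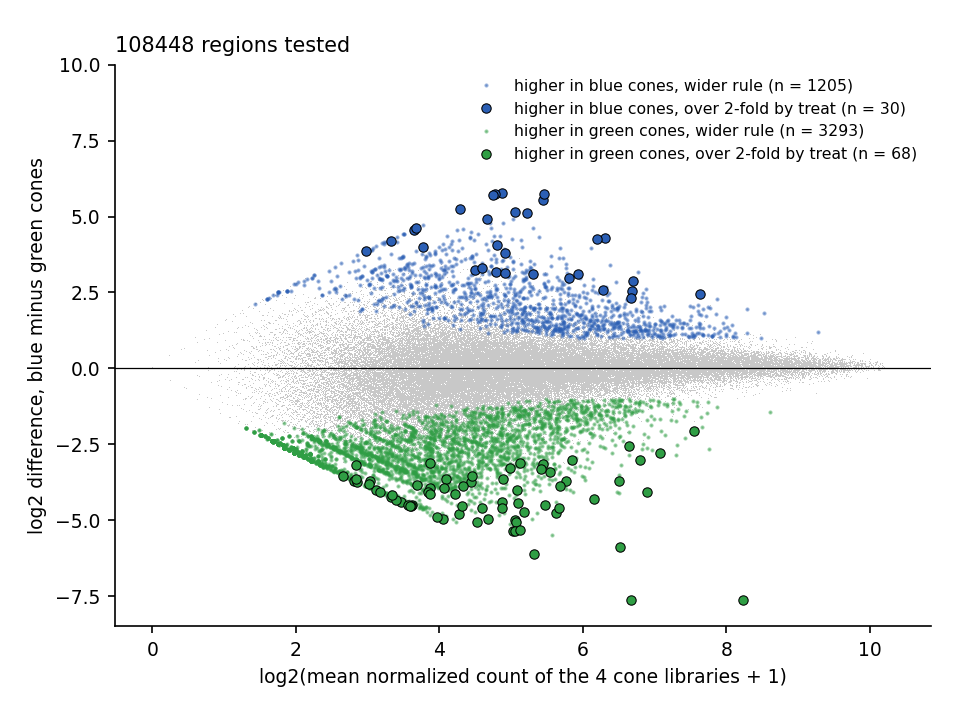
Fitted log2 difference of blue minus green cones (vertical axis) against log2 of the mean normalized count of the 4 cone libraries plus 1 (horizontal axis) for the 108448 tested regions. Outlined points are the 30 and 68 regions called at more than 2-fold, small coloured points the wider calls, and grey points the rest, and the 2 lowest points, both at -7.64, are the *Nrl* intronic region and a region near *Col19a1*.

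The *Nrl* gene itself held the clearest difference, and it ran in both directions along the gene. An intronic region centred at 2978 bp from the TSS had 0 reads in both blue cone libraries. The same region had 233.6 and 169.0 normalized counts in green cones and 674.4 and 682.4 in rods. Green cones were at least 145-fold higher, taking 3 reads over both libraries as the floor, and the fitted log2 difference was -7.64 (SE 0.40, limma adjusted p = 8.57e-08). The adjusted p was 0.000222 or lower with any of the libraries left out, and MACS2 called a peak there in both double-sorted green cone libraries, with fold enrichments of 7.41 and 7.48. A coding exon region at 3522 bp was also at 0 in blue cones, against 13.8 and 18.3 in green cones (log2 difference -4.08, SE 0.57, limma adjusted p = 0.0313), at least 11.5-fold. The 3′ UTR exon region at 5172 bp had 17.7 and 9.9 in green cones against 0 in both blue cone libraries, and passed only against no change (limma adjusted p = 0.00736). With 0 reads in each blue library over 3 regions, the gene body could not be distinguished from absent DNA, and which part of *Nrl* the knockout removes is not given in the sources used here.

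The *Nrl* promoter went the other way. The region at -39 bp (chr14:55524920-55525120) had 648.9 and 493.6 normalized counts in blue cones, 199.0 and 129.6 in green cones and 1644.7 and 1616.2 in rods. Blue cones were thus above both green libraries and below both rod libraries, with a mean 3.48-fold that of green cones (log2 difference 1.81, SE 0.36, limma adjusted p against no change = 0.00956, and 0.168 without green cones 2 or 0.095 without blue cones 1). A second region at -19 bp from another *Nrl* start had 167.1 and 107.7 against 56.1 and 50.7 and was not called. Upstream, at -1896 bp, blue and green cones overlapped, with 126.9 and 121.4 against 122.9 and 104.2 (log2 difference 0.13, SE 0.35). The blue cone line carries Nrl-eGFP and the green cone line does not, and reads from a reporter built on *Nrl* sequence cannot be told apart from those of the gene.

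**Figure D2:**
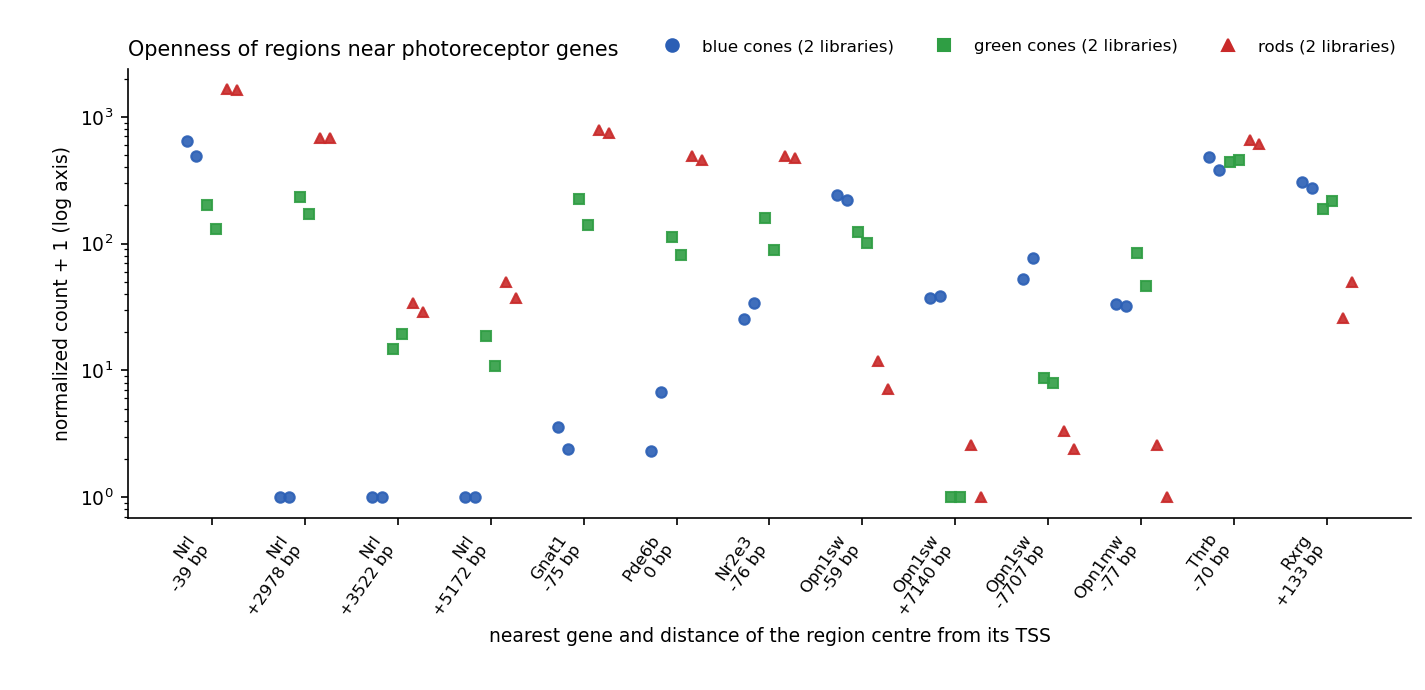
Normalized count plus 1 (vertical log axis) of each blue cone (circles), green cone (squares) and rod (triangles) library at 13 regions named by nearest gene and distance of the region centre from its TSS. Blue cones sit at 0 in the *Nrl* gene body and far below green cones at *Gnat1* and *Pde6b*, while green cones sit at 0 at the *Opn1sw* region 7140 bp from its start.

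Over the list of 20 rod genes, most regions were not called, and those that passed were, apart from the *Nrl* promoter, higher in green cones. Of 146 tested regions, 4 were higher in green cones at more than 2-fold (2.74%, against 0.0627% of all tested regions) and none in blue cones. Of these 4, 2 were *Nrl* gene body regions at 0 in blue cones, which could not be distinguished from absent DNA. The others were the starts of *Gnat1* and *Pde6b*. Under the wider rule 20 were higher in green cones (13.7% against 3.04%), 3 of them in the *Nrl* gene body. In blue cones 1 was higher, the *Nrl* promoter (0.685% against 1.11%). At the promoter of *Gnat1*, the rod transducin α subunit, blue cones had 2.6 and 1.4 normalized counts, green cones 222.1 and 138.0 and rods 792.0 and 748.1. No library of one group overlapped another, and the log2 difference of blue and green cones was -5.89 (SE 0.54, limma adjusted p = 0.00054). The start of *Pde6b*, a catalytic subunit of the rod phosphodiesterase, had 1.3 and 5.8 in blue cones against 111.4 and 80.3 in green cones (log2 difference -4.60, SE 0.56, limma adjusted p = 0.00962, and 0.114 to 0.171 without blue cones 1, green cones 1 or green cones 2).

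The promoter of *Nr2e3* had 24.6 and 33.2 against 159.1 and 87.3 (log2 difference -2.01, SE 0.50, limma adjusted p against no change = 0.0308, and 0.086 to 0.200 with any 1 library left out). Outside the phototransduction genes, intronic regions of *Racgap1*, a GTPase-activating protein of cell division (0.0 and 1.4 against 74.5 and 53.5), and of *Kcnj14*, an inwardly rectifying potassium channel (0.0 and 1.4 against 91.4 and 42.2), followed the same order, with 348.9 and 363.7 in the first rod library. Neither region had a peak in a double-sorted green cone library, and neither held over 2-fold with each library left out in turn.

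The promoters of the 20 rod genes summed to 3744.3 and 3371.2 normalized counts in blue cones, 4409.0 and 3439.0 in green cones and 12121.3 and 11862.9 in rods, so the sums of the cone groups overlapped. The median log2 difference over the 146 regions of the list was -0.51, against -0.13 over all tested regions, and -0.39 against 0.01 after quantile normalization, when 18 and 1 were called. Under the wider rule, leaving out 1 library at a time gave 10 (blue cones 1), 13 (blue cones 2), 7 (green cones 1) and 7 (green cones 2) regions higher in green cones. Only 5 of the 20 regions higher in green cones lay under a peak of either double-sorted green cone library, while 16 and 12 lay under a peak of the first and second single-sorted library, and the regions at the starts of *Gnat1* and *Pde6b* had no peak in a double-sorted library. In bulk libraries a larger share of cells with an open region and a more open region in each cell cannot be told apart.

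Of 7 regions assigned to the blue opsin gene, 2 were more open in blue cones under the wider rule. A region at 7140 bp from the *Opn1sw* TSS, inside an intron of *Calu*, had 36.3 and 37.6 normalized counts in blue cones and 0 reads in both green cone libraries. This made blue cones at least 24.8-fold higher, with a log2 difference of 5.24 (SE 0.71, limma adjusted p = 0.0192, and 0.0778 to 0.195 over the fits that left out a library). The region at -7707 bp had 51.8 and 76.6 against 7.7 and 7.0 and passed the wider rule (limma adjusted p = 0.0331, and 0.100 to 0.188 with a library left out). The promoter at -59 bp had 242.2 and 221.1 in blue cones, 121.4 and 100 in green cones and 10.9 and 6.1 in rods, and its log2 difference of 1.06 (SE 0.44) was not called (limma adjusted p against no change = 0.178). Fitted differences were above 0 at 6 of the 7 *Opn1sw* regions.

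The green opsin gene and the receptors of the thyroid hormone pathway showed no called difference. The *Opn1mw* promoter had 32.4 and 31.1 normalized counts in blue cones, 83.8 and 45.1 in green cones and 1.6 and 0.0 in rods, so it was open in both cone groups, and its log2 difference was -0.93 (SE 0.85). The green cone line carries Opn1mw-GFP, and reads from a reporter built on *Opn1mw* sequence cannot be told apart from those of the gene. At the *Thrb* promoter blue cones had 483.1 and 380.1 and green cones 436.4 and 456.3, which overlap, and none of 55 *Thrb* regions was called. The region at 133 bp of *Rxrg* had 304.4 and 271.7 against 185.9 and 214.1 without a call, and none of 13 *Rxrg* regions passed. The list of 16 genes of this pathway held 2 regions higher in blue (1.03%, against 1.11% of all) and 3 in green cones (1.54%, against 3.04%) under the wider rule among 195. These were led by an intron of *Rxra*, a retinoid X receptor (89.4 and 96.1 in blue cones against 20.0 and 12.7, log2 difference 2.47, SE 0.33, limma adjusted p against no change = 0.000767), and an intron of *Ncoa1*, a nuclear receptor coactivator (15.5 and 21.0 against 3.1 and 0.0), on the blue side.

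Of 151 tested regions of 19 cone phototransduction genes, 4 passed the wider rule for blue cones (2.65%, against 1.11% of all tested regions) and 0 for green cones (against 3.04%), with a median log2 difference of 0.09. At an unadjusted p below 0.05 against a 2-fold change 5346 of all tested regions passed. The 4 are both *Opn1sw* regions above, the promoter of *Gngt2*, a cone transducin γ subunit (376.9 and 370.7 against 155.2 and 216.9, log2 difference 1.02, SE 0.26, limma adjusted p against no change = 0.0343, and 0.116 to 0.207 with any 1 library left out), and an intron of *Rgs9*, which speeds the shutoff of transducin (13.0 and 15.9 against 3.1 and 0.0). The promoter of *Gnat2*, the cone transducin α subunit, had 248.7 and 239.2 against 124.5 and 135.2 and was not called (log2 difference 0.91, SE 0.34).

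The largest difference in favour of blue cones was an intergenic region 21989 bp from *Zfp503*, a zinc finger gene, on chromosome 14 (start 21967512, end 21967712). It had 37.6 and 75.9 normalized counts in blue cones and 0 in green cones, at least 38.0-fold (log2 difference 5.77, SE 0.65, limma adjusted p = 0.00368). A region in *B230323A14Rik* followed with 95.8 and 75.2 against 1.5 and 0.0, and one near *Naa11* with 79.0 and 88.2 against 2.3 and 0.0. The *Dnah5* and *Auts2* regions printed above had 49.2 and 56.4, and 24.6 and 22.4, against 0 in both green libraries, and *Auts2* was also at 0.0 in rods. As calls over 2-fold, none of these regions held with each library left out in turn. Of the 30 blue calls, 8 were at 0 in both green cone libraries.

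Other blue calls, chosen here after their values were seen, stood at higher levels. None of them held over 2-fold with each library left out in turn. The promoter of *Glis1*, a GLI-similar zinc finger factor, had 161.9 and 187.2 in blue cones against 30.7 and 26.8 (log2 difference 2.56, SE 0.23, limma adjusted p = 0.00696). At the promoter of *Zbtb16*, a BTB zinc finger factor, the values were 169.7 and 166.9 against 39.2 and 28.2 (limma adjusted p = 0.0141). An intron of *Notch1*, the receptor that holds progenitors undifferentiated, had 367.8 and 300.6 against 66.1 and 53.5 (limma adjusted p = 0.0313). In RNA of blue cones *Notch1* averaged 1270 ± 362 normalized counts (SD, n = 3), while *Glis1* was at 3.24 ± 1.68 and *Zbtb16* at 1.5 ± 1.3, so openness of the latter promoters went with almost no RNA. The *Pcp2* promoter, of a bipolar cell gene, had 25.9 and 23.1 against 1.5 and 0.0 in green cones, with 88.8 in the first pan-BC library.

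Among regions higher in green cones, the largest difference with green cones also above rods and pan-BC was next to *Col19a1*, at 7.8 and 0.0 in blue cones against 491.8 and 704.1 in green cones (log2 difference -7.64, SE 0.72, limma adjusted p = 0.000502, and 0.0758 without green cones 2). Green cones were above pan-BC by the mean only, since the pan-BC libraries had 584.1 and 416.2 and overlapped them. ON bipolar cells had 737.6 and 650.1 there and OFF bipolar cells 428.4 and 251.2. The *Col19a1* region also reads with care because 152 of its 177 windows of 25 bases occur in the mitochondrial genome. The next was the *Cttnbp2nl* region, at -1997 bp from the start of a gene for a protein of the cortactin-binding family. It had 0 reads in blue cones and 39.2 and 116.9 normalized counts in green cones, at least 56.1-fold (log2 difference -6.10, SE 0.86, limma adjusted p = 0.0192, and 0.0511 to 0.454 with any 1 library left out). No peak was called there in the double-sorted libraries or in the first single-sorted one. The *She* region had 0 against 13.8 and 74.6 (limma adjusted p = 0.0313, and 0.0222 to 0.584 with any 1 library left out), with a peak in 1 of the 2 double-sorted libraries, and at both sites the second green library was the higher. An intron of *Iyd*, the enzyme that salvages iodide from iodotyrosines, had 0.0 and 1.4 against 64.5 and 60.6 (limma adjusted p = 0.0313, and 0.0706 to 0.47 with any 1 library left out), and peaks of 8.54-fold and 8.33-fold enrichment in the double-sorted libraries. Neither *Iyd* nor *She* had a normalized count above 0 in RNA of blue cones. Of the 68 green calls, 21 were at 0 in both blue libraries.

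Called regions were then placed by their levels in rods and pan-BC, that is by whether either mean exceeded the higher of the cone means. Of the 68 regions higher in green cones at more than 2-fold, rods alone were above in 16, pan-BC alone in 27, both in 6, and green cones were the highest in 19. The 30 regions higher in blue cones had pan-BC above in 14 and blue cones the highest in 16, and rods were above in none. Under the wider rule green cones were the highest in 1158 of 3293 (35.2%) and blue cones in 730 of 1205 (60.6%), against 25.3% of all tested regions in which either cone group was the highest.

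At the 345 wider green calls with rods above, green cones had a median of 40.7% of the rod level and blue cones 8.22%. With pan-BC above, at 1677 regions, green cones had a median of 20.2% of the pan-BC level and blue cones 1.35%. The reverse held at the 398 wider blue calls with pan-BC above, where blue cones had 51.7% and green cones 11.9% of the pan-BC level. Promoters made up 7.41% of the wider green calls, 15.4% of the wider blue calls and 15.1% of all tested regions. These are descriptions of regions selected on the same cone libraries. The rod and pan-BC libraries were outside the contrast but entered the filter on reads and the spread of the fit. Their levels are therefore not independent of the selection either. With the 4 cone libraries alone, 72822 regions were tested, against 108448 with all libraries. Leaving out a library moved the share with green cones the highest to between 11.7% (without green cones 2) and 26.6% (without green cones 1), and that with blue cones the highest to between 41.1% (without green cones 1) and 55.2% (without blue cones 1).

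**Figure D3:**
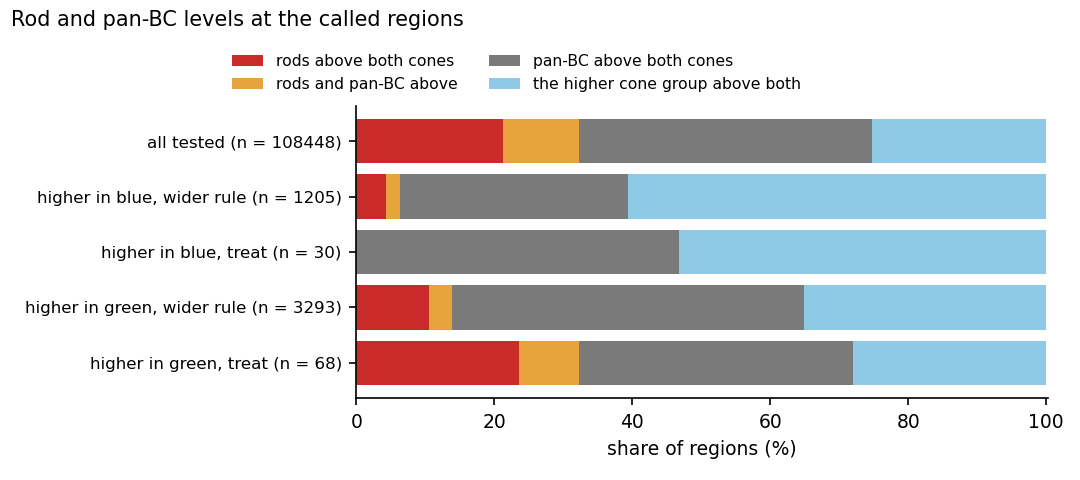
Share of regions (horizontal axis, %) in which rods alone, rods and pan-BC, pan-BC alone or neither exceeded both cone means, for all tested regions and for each set of called regions. Rods alone were above in 23.5% of the green calls over 2-fold and in 0.0% of the blue ones, and the cone group was the highest in 60.6% of the wider blue calls.

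The peaks of the double-sorted green cones, libraries without counts here, gave a second reading of the same line. Whether these peaks also helped to define the regions was not checked. A peak of either library lay over 43 of the 68 regions higher in green cones (63.2%, exact 95% binomial interval 50.7 to 74.6) and over 5 of the 30 higher in blue cones (16.7%, 5.64 to 34.7), against 44.2% of all tested regions. Under the wider rule the shares were 46.9% and 42.6%, close to each other. The green calls over 2-fold split by group. With green cones the highest, 16 of 19 lay under a double-sorted peak, with pan-BC above 17 of 27, with both above 3 of 6, and with rods above 7 of 16, although 15 and 14 of those 16 lay under a peak of the first and second single-sorted library. The double-sorted libraries had 43221 and 29410 peaks and the single-sorted ones 50585 and 38506, and how these numbers bear on the shares was not tested.

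Sequence motifs differed between the sets at TSS-distal regions, counting a region as a match when it held the letters on either strand. Of regions higher in blue cones under the wider rule 36.8% held TAATCC, the K50 motif, against 24.6% of all TSS-distal regions and 24.5% of those higher in green cones. TAATTA, the Q50 motif, was in 16.3% of blue regions, 4.79% of green regions and 5.85% of all, and ATCAAT, of ONECUT factors, in 9.13%, 4.99% and 5.35%. The Q50 share was highest, 20.7%, where blue cones exceeded rods and pan-BC. With promoters included, the median share of G and C bases was 47.8% in blue calls and 50.2% in green calls and all tested regions. How this bears on the motif shares was not tested. Leaving out a library kept the blue shares between 29.8% and 40.4% for K50 and between 12.4% and 19.7% for Q50.

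Regions higher in green cones differed by group. Where rods were above, 44.8% held the K50 motif, 36.1% AGGTCA, the nuclear receptor half-site, 30.6% TGCTGA, the NRL half-site, and 18.7% AGGTGT, the T-box half-site, against 24.6%, 17.0%, 19.2% and 9.14% of all. Where pan-BC were above, the E-boxes CAGCTG of the ASCL type (30.2% against 19.3%) and CAGATG of the NEUROD type (34.4% against 25.2%) were the more frequent. Where green cones were the highest, 30.2% held AGGTCA and 31.2% the AP-1 motif TGANTCA, against 7.74% of all regions and 5.50% of those higher in blue cones. The longer ROR motif was in 1.67% of blue, 1.51% of green and 0.70% of all regions, and the MEF2 motif in 4.71%, 4.82% and 4.39%, while AGGNGGC, part of the CTCF site, was in 16%, 16.1% and 20.6%. Intervals are exact binomial ones over regions, which share libraries and are not replicates of a condition, and a match is a run of letters rather than a bound site. AGGTCA forms the end of the ROR motif, so these overlap.

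**Figure D4:**
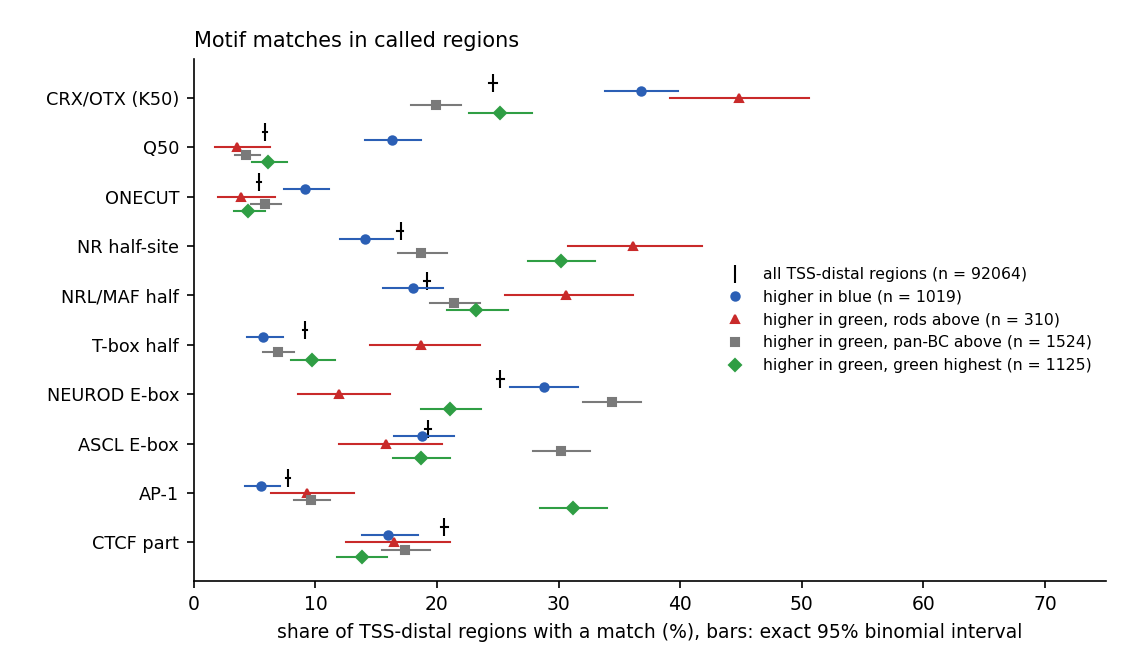
Share of TSS-distal regions with a match (horizontal axis, %, bars give exact 95% binomial intervals) for 10 motifs, in all tested regions, in the 1019 higher in blue cones and in 3 groups of those higher in green cones. The blue set lies to the right of all regions for K50 and Q50, and the set with green cones the highest lies at 31.2% for AP-1.

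The AP-1 motif went with a difference between the green cone libraries. Of the 1158 regions with green cones the highest, 356 held it, and in 327 of these (91.9%) the second green library was above the first, against 546 of 802 without it (68.1%) and 49.7% of all tested regions. Medians at the regions with a match were 25.4 and 49.3 normalized counts in the green libraries, 2.59 and 2.89 in blue cones, 1.56 and 1.36 in rods and 5.60 and 4.56 in pan-BC. Double-sorted peaks covered 67.4% (first library) and 23.9% (second library) of these regions, and 73.2% and 38.8% of those without a match. Among TSS-distal wider green calls alone, the AP-1 share was 17.5% with all libraries and 21.0% without green cones 1. Without green cones 2 it was 13.8%, over far fewer regions. The exact binomial interval of that share, 8.5 to 20.7%, includes the share with all libraries. Immediate early genes, whose products include FOS and JUN, had 2 of 138 regions higher in blue and 2 in green cones under the wider rule. That is 1.45% each, against 1.11% and 3.04% of all tested regions. The *Fos* promoter had 281.0 and 316.5 in blue cones against 255.9 and 185.9 in green cones.

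**Figure D5:**
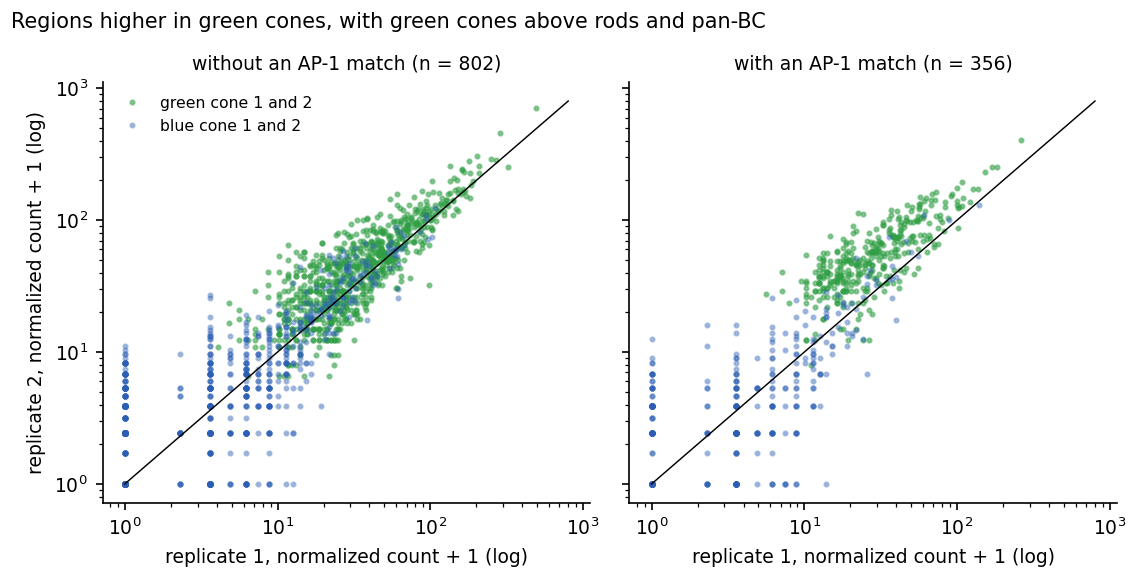
Normalized count plus 1 in replicate 2 (vertical log axis) against replicate 1 (horizontal log axis) at the 1158 regions with green cones the highest, split by AP-1 match, for green cones and for blue cones. With a match, the second green library lies above the diagonal in 327 of 356 regions.

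Among 423 regions of 32 photoreceptor transcription factors, 7 were higher in blue (1.65%) and 9 in green cones (2.13%) under the wider rule, near the 1.11% and 3.04% of all tested regions, with a median log2 difference of -0.06, and introns or neighbours of *Mafk*, *Sall1* and *Onecut1* led the green side. Promoters of *Crx* (213.7 and 195.8 against 268.2 and 188.7) and *Neurod1* (392.4 and 391.0 against 402.6 and 384.5) overlapped between the groups. Genes of dorsal and ventral retina had 3 and 3 of 99 regions (3.03% each), among them a region 85219 bp from *Efnb1*, an ephrin, at 11.7 and 21.7 in blue cones against 0 in both green cone libraries. The promoter of *Tbx3*, a dorsal T-box factor, had 160.6 and 136.6 against 57.6 and 63.4 and missed the rule (limma adjusted p against no change = 0.0521).

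Of bipolar cell markers, 3 of 105 regions were higher in blue and 3 in green cones under the wider rule (2.86% each, against 1.11% and 3.04% of all tested regions). Their promoters summed to 266.8 and 273.9 normalized counts in blue cones, 212.1 and 278.8 in green cones and 1085.0 and 1206.5 in pan-BC, with 1 promoter at 0 in both blue libraries. Amacrine, horizontal and ganglion cell markers had 1 (1.35%) and 0 of 74 regions (promoter sums 310.8 and 272.4 in blue against 249.0 and 223.9 in green cones), Müller glia and astrocyte markers 1 (1.32%) and 2 (2.63%) of 76 (879.4 and 1014.6 against 822.2 and 919.6), microglia and endothelial markers 2 (4.0%) and 0 of 50 (31.1 and 17.3 against 16.9 and 11.3) and pigment epithelium markers 1 (3.7%) and 0 of 27 (626.8 and 604.1 against 541.7 and 691.5). For these lists the blue and green ranges of the summed promoters overlapped, except for amacrine and for microglia markers, where both blue libraries were above both green ones. The amacrine sum rests on 8 promoter regions and the pigment epithelium sum on 2. The microglia sum also rests on 2, with 1 of them at 0 in both blue libraries, and its values are near the floor. Stress genes of photoreceptors had 3 and 3 of 89 regions (3.37% each), with the promoter of *Cebpd*, a transcription factor of inflammation, at 40.1 and 51.3 against 14.6 and 9.9. The part of other cells in the differences was not tested.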

How the data were processed

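Per the paper's methods and the submitters' processing notes, the authors aligned ATAC-seq reads to GRCm38 (mm10) with Bowtie2 (2.2.5 in the notes, a different version in the paper), dropped duplicates and long fragments and ran MACS2 (2.1.1) on single libraries. The deposited signal values of regions and genes are counts that the authors divided by 1 size factor per library, and whole reads were recovered for 100.0% of values above 0 (within 0.01 of a read). The authors' peak files give a score, a fold enrichment and -log10 p and q values.

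Here, regions passing edgeR's filterByExpr were fitted with limma (3.58.1, trended prior) on log2(normalized count + 1), which understates changes at few reads, with 1 level per population over 12 libraries. The treat test took a log2 fold change of 1 as the null, with Benjamini-Hochberg adjustment, and the wider rule took 0 as the null and kept fitted changes of at least 1. Regions were assigned to the nearest of 44528 RefSeq transcript starts, and a promoter was centred from 1000 bp upstream to 100 bp downstream of one. Named regions were the called regions and highest promoters of *Nrl*, *Nr2e3*, *Opn1sw*, *Opn1mw*, *Thrb*, *Rxrg* and 1 gene not reported here, the 10 largest non-overlapping calls in each direction, and up to 4 genes of each list. The regions at *Gm6498*, *Gm27239*, *Glis1*, *Zbtb16* and *Notch1*, 2 uncalled *Nrl* regions and the *Rxrg* region at 133 bp were added after their values were seen. Members and lists were chosen with earlier results of these data known. On simulated counts at 108130 regions, treat called 61 of 100 regions changed 16-fold, 6 of 100 changed 4-fold and 0 unchanged ones. Alternatives used edgeR (4.0.16) and DESeq2 (1.42.0) on recovered reads, other scalings, pseudocounts and filters, and left out libraries.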

Additional observations from a re-analysis of the deposited data

How the results depend on the processing

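The counts of regions over 2-fold (30 higher in blue and 68 in green cones) moved most with the test and with single libraries. They were 251 and 659 with edgeR, 1205 and 3293 with limma against no change, 169 and 254 with the 4 cone libraries alone, 18 and 39 with a pseudocount of 0.5, and 60 and 119 with a pseudocount of 8. Without 1 library they ranged from 1 to 37 and from 4 to 136. Counts with DESeq2 (29 and 74), TMM scaling (37 and 66), scaling to the library total (38 and 98), promoter size factors (30 and 92) and no filter (28 and 62) were within 1.5 times of these. edgeR shared 30 of 30 and 68 of 68 of the calls, and DESeq2 18 and 35. Quantile normalization, chosen after seeing the data, gave 32 higher in green cones, 1585 under the wider rule, and shared 29 and 32 of the calls.

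Under the wider rule (1205 and 3293), whose alternatives were also chosen after seeing the data, the 4 cone libraries alone gave 2527 and 4770, and leaving out 1 library gave 166 to 998 and 162 to 2084. Replicate numbers did not pair the samples, since deviations of same-numbered libraries had a correlation of -0.006. With the replicate block the counts were 28 and 64, and 1153 and 3103 under the wider rule. At a -log10 q of at least 10 for a double-sorted peak, the share of called regions under a peak was 36.8% for the green calls over 2-fold, and 19.5% and 19.1% for the wider blue and green calls, which turned their order (42.6% and 46.9% over all peaks). Blue calls outnumbered green calls over 2-fold with quantile normalization (35 and 32) and without green cones 1 (37 and 16), and under the wider rule without green cones 2 (166 and 162). The cause of these shifts was not tested. With 2 libraries a group and 4176776 to 8058443 reads, changes of 4-fold were mostly missed in the simulation, so a region not called was not shown to be alike.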

Other observations

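Some genes gathered several wider calls in 1 direction, counting regions by nearest TSS. Higher in blue cones were 11 of 41 regions of *Mtus2*, a microtubule-associated protein (median log2 difference 1.36), 9 of 62 of *Nrxn3*, a presynaptic neurexin (0.77), 8 of 13 of *Wscd2* (1.73) and 7 of 19 of *Kctd8*, an auxiliary subunit of GABA-B receptors (2.01). *Irx6*, a homeobox factor of bipolar cells, had 5 of 10 (1.47). Higher in green cones were 11 of 22 regions of *Cpeb2*, an RNA-binding protein (-1.49), 11 of 28 of *Dlgap2*, a postsynaptic scaffold (-1.98), 9 of 15 of *Fam189a1* (-2.66) and 7 of 21 of *Ryr2*, a ryanodine receptor (-1.56). Over all tested regions 1.11% were higher in blue and 3.04% in green cones under the wider rule. These genes were picked by their counts, so the counts are descriptions.

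Near *Nrl*, calls over 2-fold were 8 of 1122 regions within 10 Mb of its TSS (0.713%), or 6 of 1116 (0.538%) without its own, against 0.0904% of all tested regions. The background of the knockout line around *Nrl* is not given in the sources used here, and its part was not tested.

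Matches to the mitochondrial genome, of at least 50% of the 25-base windows of a region, occurred at 3 tested regions. Both regions near *Col19a1* were higher in green cones under the wider rule, and the one near *Gad2* was not called (85.5 and 52.0 normalized counts in blue against 86.1 and 109.8 in green cones).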
